A study of Mus musculus with 24 samples.

Results

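The genes described here encode the machinery of oxidative phosphorylation: the subunits of respiratory complexes I to IV and of ATP synthase, with the complex I assembly factors whose symbols share the Nduf prefix. They were chosen by symbol alone, as every gene marked protein coding in the count table whose name begins with Nduf followed by a, b, c, s or v, with Uqcr, with Cox followed by 4 to 8 or with Atp5, together with Sdha to Sdhd and the mitochondrial genes named mt-Nd, mt-Co, mt-Cytb and mt-Atp. The rule gave 105 of the 53465 genes in the table, of which 21923 were protein coding. There were 92 nuclear members: 36 for complex I, 8 complex I assembly factors (Ndufaf1 to Ndufaf8), 4 for complex II, 8 for complex III, 20 for complex IV and 16 for ATP synthase. The other 13 members lie on the mitochondrial genome (chromosome M): 7 for complex I, 1 for complex III, 3 for complex IV and 2 for ATP synthase. Of the 105 members, 93 (85 nuclear and 8 mitochondrial) passed the filter on low counts and were tested among 10536 genes.

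In oxidative phosphorylation, complexes I and II take electrons from NADH and succinate, complex III passes them to cytochrome c, and complex IV hands them to oxygen. Complexes I, III and IV pump protons across the inner mitochondrial membrane, and ATP synthase uses the gradient to make ATP. Most subunits are nuclear-encoded and imported, while a small core is transcribed inside the mitochondrion as long precursors that are cut into single messages, so the mitochondrial genes are not independent of each other. Natural killer (NK) cells are innate lymphocytes that kill tumour cells, and they are known to raise oxidative metabolism when stimulated with cytokines.

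The study sorted NK cells from B16F10 tumours, grown from a mouse melanoma line placed under the skin of the flank, at day 14 in female wild-type B6 mice. Each of the 4 populations had 6 libraries: CD11b+ cells without and with CD69 (CD11b+CD69- and CD11b+CD69+), and CD27+ cells without and with it (CD27+CD69- and CD27+CD69+). Values given for all populations together follow this order. CD11b is an integrin chain of mature NK cells, CD27 a receptor of less mature ones, and CD69 a surface lectin of recently activated cells. The labels name no treatment, and the sample field for cell type reads melanoma, so groups follow the sample titles and the design text. All groups share the tumour, the strain and the day, and none was sorted from a tissue without tumour. Each library came from 100 cells, and the labels do not say whether replicates came from separate mice, so the p-values speak of the spread among these samples alone, which may be technical. In bulk samples of this kind, fewer cells of a type and less RNA per cell cannot be told apart.

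Total counts per library ran from 1213914 to 2671533 (median 2213433), so that 3 counts corresponded to 1.12 to 2.47 CPM, the count scaled to library size. All 14 genes of an NK identity list had counts in every population, but they summed to 33607 to 49567 CPM in CD11b+ libraries and to 12310 to 22069 CPM in CD27+ libraries. The largest genes of this sum in CD11b+ cells were the granzymes Gzma (means 12464, 9791, 3830 and 2618 CPM) and Gzmb (9353, 7559, 1068 and 1555). The receptor genes Ncr1 (2628, 2141, 1244 and 1545) and Klrb1c (1898, 1610, 987 and 1010) were also lower in CD27+ cells. Klrk1 (2767, 3022, 2187 and 2755) and Klrd1 (1524, 1513, 1092 and 1423), also receptor genes, changed less. The genes of the sum thus changed unequally, and the share of NK cells in the libraries was not tested. Melanoma and fibroblast genes were highest in the CD27+CD69- population. Its 6 libraries held 17.5 to 10367 CPM of melanoma genes (9 of 9 detected) and 0 to 8214 CPM of fibroblast and pericyte genes (8 of 9 detected, Rgs5 at 0). In CD11b+ libraries melanoma genes reached at most 16.9 CPM without and 28.2 CPM with CD69, and in CD27+CD69+ libraries 826 CPM, with 4, 7 and 8 of 9 genes detected. Fibroblast genes reached at most 8.02 CPM outside CD27+CD69-. T cell genes summed to 928 to 1768 CPM in CD11b+ and to 1257 to 3859 CPM in CD27+ libraries, with 9 to 11 of 11 genes detected and the highest mean in CD27+CD69+ (3266 CPM). The genes of the CD3 chains differed more than this sum. Cd3d averaged 3.33, 12.3, 257 and 429 CPM, Cd3e 0.082, 1.45, 85.8 and 139, and Cd3g 3.20, 39.3, 303 and 550. Trbc1, the largest gene of the sum, averaged 807, 1012, 888 and 1065 CPM. The part of T cells in the comparisons of CD27+ with CD11b+ cells was not tested. Erythroid genes (5 of 5 detected in both CD27+ populations) reached 3387 CPM in CD27+CD69+ replicate 3 and 283 CPM in CD27+CD69- replicate 4, against at most 6.21 CPM in any other library. CD27+CD69- replicate 6 stood apart, with 10367 CPM of melanoma genes, 12310 CPM of NK identity genes and the lowest total count.

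Counts of the 13 mitochondrial members were spread very unevenly along their genome. mt-Co1, a catalytic core subunit of complex IV, held 149677 counts over the 24 libraries, and mt-Cytb, the cytochrome b of complex III, held 102860. The complex I genes mt-Nd1, mt-Nd5, mt-Nd4, mt-Nd2, mt-Nd6 and mt-Nd3 held 56860, 35322, 21305, 13279, 3569 and 354 counts. The other members were almost empty: mt-Co3 held 21 counts, mt-Co2 and mt-Atp6 held 4 each, mt-Atp8 held 2 and mt-Nd4l held 0. These last 5, which encode core subunits of complex IV, ATP synthase and complex I, were not tested.

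The near-empty genes have near-identical copies in the nuclear genome, in annotated pseudogenes on chromosome 1. Each gene was cut into overlapping windows of 50 bases, and a window was counted as shared where another annotated transcript holds the same letters on either strand. The shared part was 100% for mt-Co2, 99.9% for mt-Co3, 99.5% for mt-Atp6, 98.8% for mt-Nd4l and 98.0% for mt-Nd3. It was 0% for mt-Cytb, mt-Nd1 and mt-Nd6, 7.6% for mt-Nd5 and 8.2% for mt-Nd2. mt-Nd4 (62.2%) and mt-Co1 (51.1%) lay between these groups and kept many counts. mt-Atp8 did not follow this order, with 0% of its windows in another annotated transcript and 2 counts, and most of its place on the chromosome 1 copy falls in a gap between annotated pseudogenes. The labels and file do not say how reads that fit several places were counted, and its part in these counts was not tested.

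The first 120 bases of mt-Co2 are shown because they make the sharing visible: the copy on chromosome 1 (Gm28661) has the same letters, and the copy on chromosome 2 (Gm13341) does not. In the GRCm38 build mt-Co2 is read from chrM:7013-7132 on the plus strand, Gm28661 from chr1:24615446-24615565 on the minus strand and Gm13341 from chr2:22587843-22587962 on the minus strand. Capitals mark the 2 positions, counted from 1 at the 5′ end, at which Gm13341 differs from mt-Co2 (C25T and G57A).
mt-Co2: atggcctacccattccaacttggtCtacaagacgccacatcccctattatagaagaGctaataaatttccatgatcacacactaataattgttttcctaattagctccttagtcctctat
Gm28661: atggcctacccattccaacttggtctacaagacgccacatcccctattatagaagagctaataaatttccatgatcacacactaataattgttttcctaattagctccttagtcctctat
Gm13341: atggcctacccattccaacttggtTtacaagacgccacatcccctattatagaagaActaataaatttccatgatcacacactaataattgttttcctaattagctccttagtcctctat

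Over their whole annotated length, mt-Co2 and Gm28661 were identical at all 681 positions compared. mt-Co3 matched Gm28437 at 783 positions, mt-Atp6 matched Gm10925 at 678, mt-Nd4l matched Gm10222 at 294 and mt-Nd4 matched Gm28439 at 876, each with 0 mismatches. mt-Nd3 differed from Gm28438 at 1 of 345 positions. mt-Co1 differed from its copy on chromosome 1 (Gm29216) at 6 of 492 positions and from Gm13340 on chromosome 2 at 37 of 1545. The 7 copies on chromosome 1 form one run from 24611535 to 24616197 on the minus strand, in the order of the mitochondrial genes. The pseudogenes themselves drew few counts: 128 for Gm28437, 53 for Gm29216, 49 for Gm28661 and 31 for Gm10925 over all 24 libraries.

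**Figure D1:**
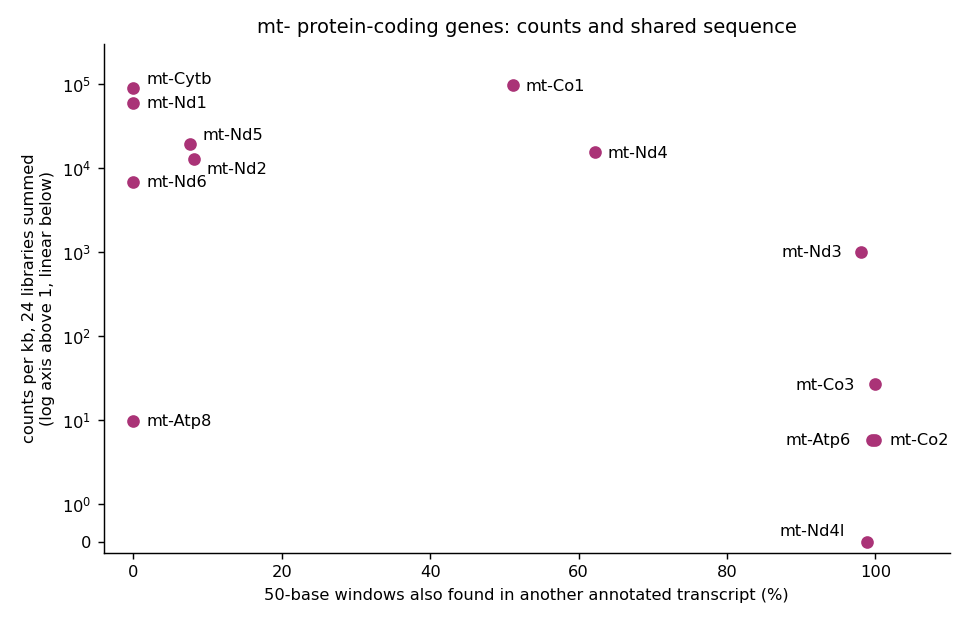
Counts per kilobase over the 24 libraries (vertical, log scale) against the percent of each gene's 50-base windows that also occur in another annotated transcript (horizontal) for the 13 mitochondrial members. mt-Co2, mt-Co3, mt-Atp6 and mt-Nd4l sit at the right with 98.8% to 100% shared windows and at most 26.8 counts per kilobase, while mt-Cytb and mt-Nd1, at 0%, have 89913 and 59415.

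Levels are compared between genes only as CPM per kilobase of transcript, averaged over the 24 libraries. The highest of all members were the mitochondrial genes mt-Co1 (1948 CPM per kb), mt-Cytb (1816) and mt-Nd1 (1200). They were followed by Atp5b, the catalytic beta subunit of ATP synthase (1001), and by the complex IV subunit Cox8a (913). Ndufa4, named for complex I but a subunit of complex IV, stood at 792 CPM per kb. The second ATP synthase gene, Atp5g3, encodes the c subunit of the membrane ring and stood at 777.

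By complex, the medians of the tested nuclear members were 469 CPM per kb for complex IV, 371 for ATP synthase, 331 for complex III, 191 for complex II and 160 for complex I. Complex I was led by Ndufa1 (574) and Ndufa3 (412), both accessory subunits, and its lowest tested member was Ndufb4 (22.2). The main transcript of Ndufb4 shares 37.0% of its windows with other annotated transcripts. In complex II, Sdhb, which carries iron-sulphur clusters, stood at 394 and the membrane anchor Sdhd at 238. In complex III, the small subunits Uqcrh and Uqcrq stood at 486 and 482. The assembly factors, which help to build complex I and are not part of it, were far lower, with a median of 30.5 and the highest values in Ndufaf8 (63.4) and Ndufaf7 (45.6).

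The spread over the 24 libraries followed the same division. The median coefficient of variation was between 15.7% and 19.4% for the 5 nuclear complexes, 33.9% for the assembly factors and 35.3% for the mitochondrial complex I genes. mt-Cytb had 28.2% and mt-Co1 26.3%. Ndufaf6, at 12.0 CPM per kb the lowest of the assembly factors, varied by 52.8%.

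Where a complex IV subunit has forms encoded by separate genes, the ubiquitous form held nearly all counts, apart from Cox7a2l. Cox4i1 had 28015 counts over the 24 libraries against 3 for Cox4i2, a form known from lung. Cox6a1 had 22759 against 175 for Cox6a2, the heart and muscle form, and Cox6b1 had 19011 against 64 for Cox6b2, known from testis. Cox6a2 shares exon positions with Itgad on the other strand. Cox7a2 had 15617 and the supercomplex factor Cox7a2l 5301, against 29 for the muscle form Cox7a1. Cox8a had 25696 counts, Cox8c 2 and Cox8b, a heart and muscle form, 0, while Cox7b had 14184 and Cox7b2 had 0.

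Among the 3 genes that encode the same mature c subunit of ATP synthase, Atp5g3 held 28047 counts, Atp5g1 6115 and Atp5g2 980. All 50-base windows of Atp5g2 and 66.0% of those of Atp5g1 occur in other annotated transcripts, against 0% for Atp5g3, so their order is uncertain. Ndufa4 held 18048 counts and Ndufa4l2, a hypoxia-induced relative, held 87. All 87 were in CD27+CD69- replicate 3 (41.1 CPM), a library with 6445 CPM of fibroblast and pericyte genes. The part of those cells in the Ndufa4l2 counts was not tested. Not tested for want of counts were Cox4i2, Cox6b2, Cox7a1, Cox7b2, Cox8b, Cox8c and Ndufa4l2.

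**Figure D2:**
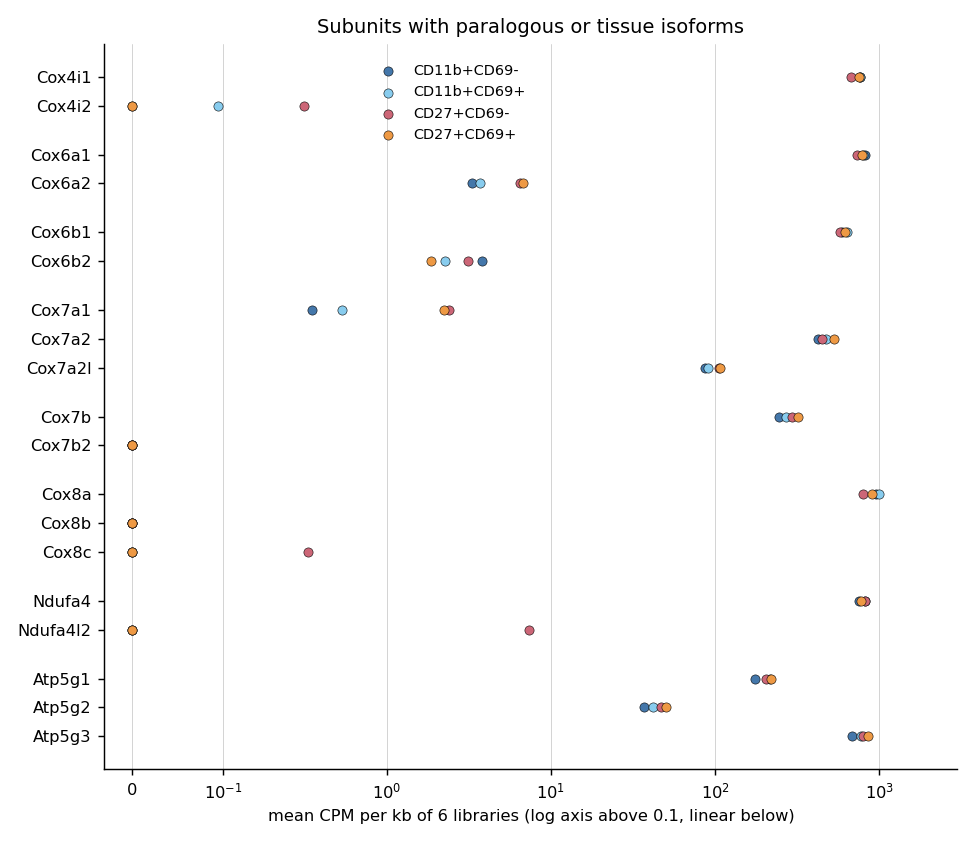
Mean CPM per kilobase in each of the 4 populations (log scale) for the members of 8 groups of related genes. In each group 1 gene stands above its relatives in all populations, and the smallest gaps are between Atp5g3 (777 CPM per kb over all libraries) and Atp5g1 (203) and between Cox7a2 (469) and Cox7a2l (97.5).

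Summed over all 13 mitochondrial members, the RNA level in CD11b+ libraries was 5972 ± 562 CPM without CD69 and 7015 ± 1856 with it, and in CD27+ libraries 8951 ± 2758 and 8960 ± 981 (SD, n = 6 for every population). The ranges were 5403 to 6601, 5511 to 10575, 5375 to 12541 and 7661 to 10489 CPM. The CD27+CD69- libraries therefore held both the lowest and the highest value of all 24. In CD11b+CD69+, 5 libraries lay at or below 6957 CPM and replicate 4 at 10575.

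The 92 nuclear members summed to 17900 ± 888, 19426 ± 915, 19242 ± 2803 and 20430 ± 1985 CPM. Over the 24 libraries the nuclear sum spanned a 1.55-fold range and the mitochondrial sum a 2.33-fold range. Counted mitochondrial RNA per 100 of nuclear RNA of the pathway was 33.5 ± 3.89, 35.9 ± 7.69, 46.0 ± 10.6 and 43.9 ± 3.52. The mitochondrial sum held almost nothing from mt-Co2, mt-Co3, mt-Atp6, mt-Atp8 and mt-Nd4l, which were nearly empty. For mt-Co1 and mt-Nd4, which share part of their windows with annotated copies, a loss of counts was not tested. The ratio therefore covers only the counted part of the mitochondrial messages and is not their full share. Of the 12 libraries above the median of the mitochondrial sum 11 were CD27+, and of the 12 above the median of the nuclear sum 8 were. The highest nuclear and mitochondrial sums, 24185 and 12541 CPM, were both in CD27+CD69- replicate 6, the library with the most melanoma RNA. The part of that RNA was not tested in these sums.

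By complex, the largest nuclear sums were those of ATP synthase. Its genes summed to 6237 ± 429, 6826 ± 281, 6561 ± 746 and 7184 ± 746 CPM. The complex I genes summed to 4962 ± 281, 5320 ± 286, 5461 ± 813 and 5712 ± 555, and the complex IV genes to 3605 ± 211, 3795 ± 285, 3592 ± 728 and 3831 ± 367. For complex III the sums were 1699 ± 53.0, 1899 ± 77.7, 1947 ± 327 and 2021 ± 177. Here all 6 CD11b+CD69+ libraries (1796 to 1985) lay above all 6 CD11b+CD69- libraries (1643 to 1770), while the sums of every other nuclear group overlapped between these populations. The complex II sums were 1115 ± 124, 1249 ± 86.2, 1355 ± 208 and 1299 ± 130, and the assembly factors summed to 282 ± 45.3, 337 ± 70.4, 328 ± 61.3 and 384 ± 70.3.

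**Figure D3:**
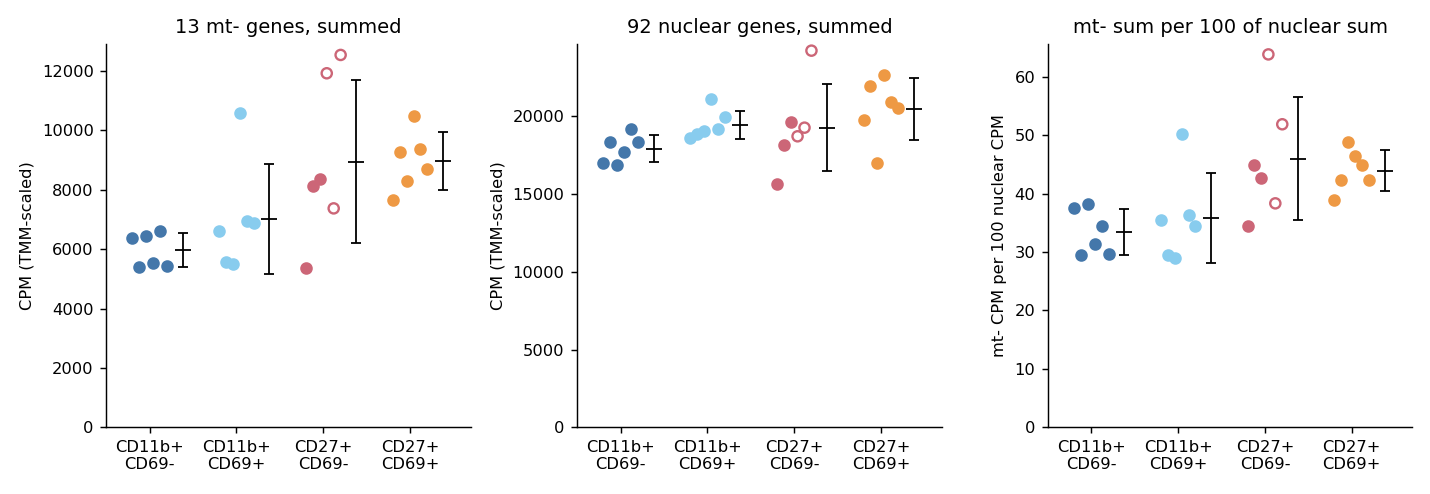
Summed CPM of the mitochondrial members, summed CPM of the nuclear members, and mitochondrial CPM per 100 nuclear CPM, for each library (points) of the 4 populations with mean and SD; open circles are CD27+CD69- libraries over 1000 CPM of melanoma genes. CD11b+CD69- libraries lie at 5403 to 6601 CPM of mitochondrial RNA and CD27+CD69+ libraries at 7661 to 10489, while the CD27+CD69- libraries spread from 5375 to 12541.

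Differences between CD27+ and CD11b+ cells were tested first among cells without CD69. In this comparison 7 of 93 members were called, at an adjusted p under 0.05 in edgeR's quasi-likelihood test, all 7 higher in CD27+CD69- and 0 lower. Among all 10536 genes, 12.4% were called in either direction, 7.46% higher and 4.92% lower, so the members' 7 calls lie near the background. Of the 85 nuclear members 4 were called and of the 8 mitochondrial members 3. The estimates were above 0 for 61 of 85 nuclear and 8 of 8 mitochondrial members, with medians on the log2 scale of 0.17 and 0.54, against a median of 0.05 and 53.7% above 0 for all genes. At an unadjusted p under 0.05 stood 24 members, 20 of them higher, against 23.7% of all genes (13.8% higher).

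Among the mitochondrial genes, mt-Co1 (chrM:5328-6872) rose with the smallest p. Its lowest, median and highest levels were 2043, 2329 and 2575 CPM in CD11b+CD69- and 2203, 3278 and 4817 CPM in CD27+CD69- libraries. The groups overlapped, with 5 of 6 CD27+CD69- libraries above the CD11b+CD69- median, and the log2 difference was 0.63 ± 0.14 (SE; edgeR adjusted p = 0.00309). mt-Cytb (chrM:14145-15288) stood at 1355, 1563 and 1956 against 1699, 2158 and 3451 CPM. All 6 of its CD27+CD69- libraries were above the other median, with some overlap at the edges, and the log2 difference was 0.57 ± 0.17 (edgeR adjusted p = 0.0274).

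mt-Nd5 (chrM:11742-13565), a proton-pumping subunit of complex I, stood at 454, 502 and 633 CPM against 335, 827 and 1017. 1 CD27+CD69- library lay below every CD11b+CD69- library and the other 5 above the CD11b+CD69- median, with a log2 difference of 0.59 ± 0.19 (edgeR adjusted p = 0.0362). The remaining mitochondrial estimates pointed the same way without passing the threshold. They were 0.62 for mt-Nd4 (adjusted p = 0.0541), 0.50 for mt-Nd1 (0.0829), 0.45 for mt-Nd6 (0.346), 0.44 for mt-Nd2 (0.368) and 0.51 for mt-Nd3 (0.699), the last at 12.5 CPM or less in every library.

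Of the nuclear genes, Uqcr11 (chr10:80402997-80406830, minus strand), a small subunit of complex III, had lowest, median and highest levels of 93.9, 102 and 126 CPM in CD11b+CD69- and 117, 165 and 262 CPM in CD27+CD69- libraries. All 6 CD27+CD69- libraries were above the CD11b+CD69- median, though the ranges overlapped between 117 and 126 CPM. The log2 difference was 0.69 ± 0.16 (edgeR adjusted p = 0.00354). Ndufa7 (chr17:33824572-33838317, plus strand), an accessory subunit of complex I, stood at 116, 157 and 184 against 178, 243 and 269 CPM. Its ranges overlapped only between 178 and 184 CPM, and the log2 difference was 0.58 ± 0.14 (edgeR adjusted p = 0.00438). Ndufa12 (chr10:94198720-94221443, plus strand), another accessory subunit, stood at 48.0, 57.9 and 66.9 against 64.3, 77.3 and 115 CPM, a log2 difference of 0.55 ± 0.16 (edgeR adjusted p = 0.0234). Of the windows of its main transcript 26.2% are shared with other annotated transcripts.

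Ndufaf6 (chr4:11051045-11076205, minus strand), an assembly factor needed early in building complex I, was the 1 called member whose groups did not overlap, against 6.62% of all genes (3.86% with CD27+CD69- higher). It stood at 2.22, 4.93 and 8.00 CPM in CD11b+CD69- and 8.38, 13.6 and 21.0 CPM in CD27+CD69- libraries. The log2 difference was 1.43 ± 0.47 (edgeR adjusted p = 0.0447), from 5 to 17 counts per CD11b+CD69- library and 17 to 36 per CD27+CD69- library. Its CD11b+CD69+ and CD27+CD69+ libraries had medians of 17.8 and 18.0 CPM, so that CD11b+CD69- was the low population.

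With all 24 libraries in the fit no member was called lower by edgeR, and 4 with a lower estimate had an unadjusted p under 0.05. The estimates furthest below 0 were imprecise: -0.59 ± 0.53 for Atp5l, the g subunit of ATP synthase (edgeR adjusted p = 0.572), and -0.58 ± 0.47 for Ndufb2, a complex I accessory subunit (0.517). The main transcript of Atp5l shares 68.5% of its windows with other annotated transcripts. Cox8a stood at 499, 521 and 581 CPM in CD11b+CD69- against 325, 445 and 538 in CD27+CD69- libraries (log2 difference -0.27 ± 0.10, edgeR adjusted p = 0.101). Atp5d, the delta subunit in the stalk of ATP synthase, stood at 340, 447 and 493 against 291, 348 and 371 CPM (-0.30 ± 0.10, edgeR adjusted p = 0.0598). All 6 CD27+CD69- libraries were below the CD11b+CD69- median of Atp5d, which shares exon positions with Cbarp on the other strand. By complex, the median log2 differences were 0.28 for complex II, 0.24 for complex III, 0.19 for complex I, 0.11 for the assembly factors, 0.09 for complex IV and 0.09 for ATP synthase.

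The calls changed with the libraries in the fit. Without CD27+CD69- replicates 4, 5 and 6, which held over 1000 CPM of melanoma genes, 0 of 93 members were called while 7.62% of genes were, and the median log2 difference of the nuclear members was 2.98e-05. The difference of Ndufa12 was 0.55 with and without these libraries (adjusted p = 0.0744 without). Those of mt-Co1 (0.63 to 0.36), mt-Cytb (0.57 to 0.31), mt-Nd5 (0.59 to 0.37), Uqcr11 (0.69 to 0.43), Ndufa7 (0.58 to 0.38) and Ndufaf6 (1.43 to 0.92) were smaller without them. Without replicates 2, 3 and 6, which held over 4000 CPM of fibroblast genes, 3 members were called: mt-Co1 (0.52, edgeR adjusted p = 0.0439) and Ndufa7 (0.60, 0.0257), both higher, and Cox8a (-0.47, 0.0110), which was lower. With the summed melanoma and fibroblast genes as covariates, 0 members and 1.15% of genes were called, and the medians were -0.06 for nuclear and 0.01 for mitochondrial members. Fibroblast genes were nearly confined to CD27+CD69- libraries, so this fit cannot separate them well from the population itself. Its SE was larger, 0.27 against 0.14 for mt-Co1 and 0.29 against 0.16 for Uqcr11. Leaving out replicate 1 alone raised the calls to 9 nuclear and 5 mitochondrial members, and leaving out replicate 6 alone lowered them to 2 and 1. Leaving out 1 of CD11b+CD69- replicates 4 and 6 or CD27+CD69- replicate 4 likewise lowered the mitochondrial calls to 1. The share of all genes called with 1 library left out is not given here, so these counts have no background beside them. Some fits with 1 library left out also held lower calls. Atp5d was called lower without CD27+CD69- replicate 1 (-0.32, edgeR adjusted p = 0.0466). It was also called lower without CD11b+CD69- replicate 1 or 3 or CD27+CD69+ replicate 3. Ndufb7 was called lower without CD11b+CD69- replicate 3 (-0.37, edgeR adjusted p = 0.0479), and Cox8a without CD27+CD69- replicate 3 (-0.34, 0.0345).

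**Figure D4:**
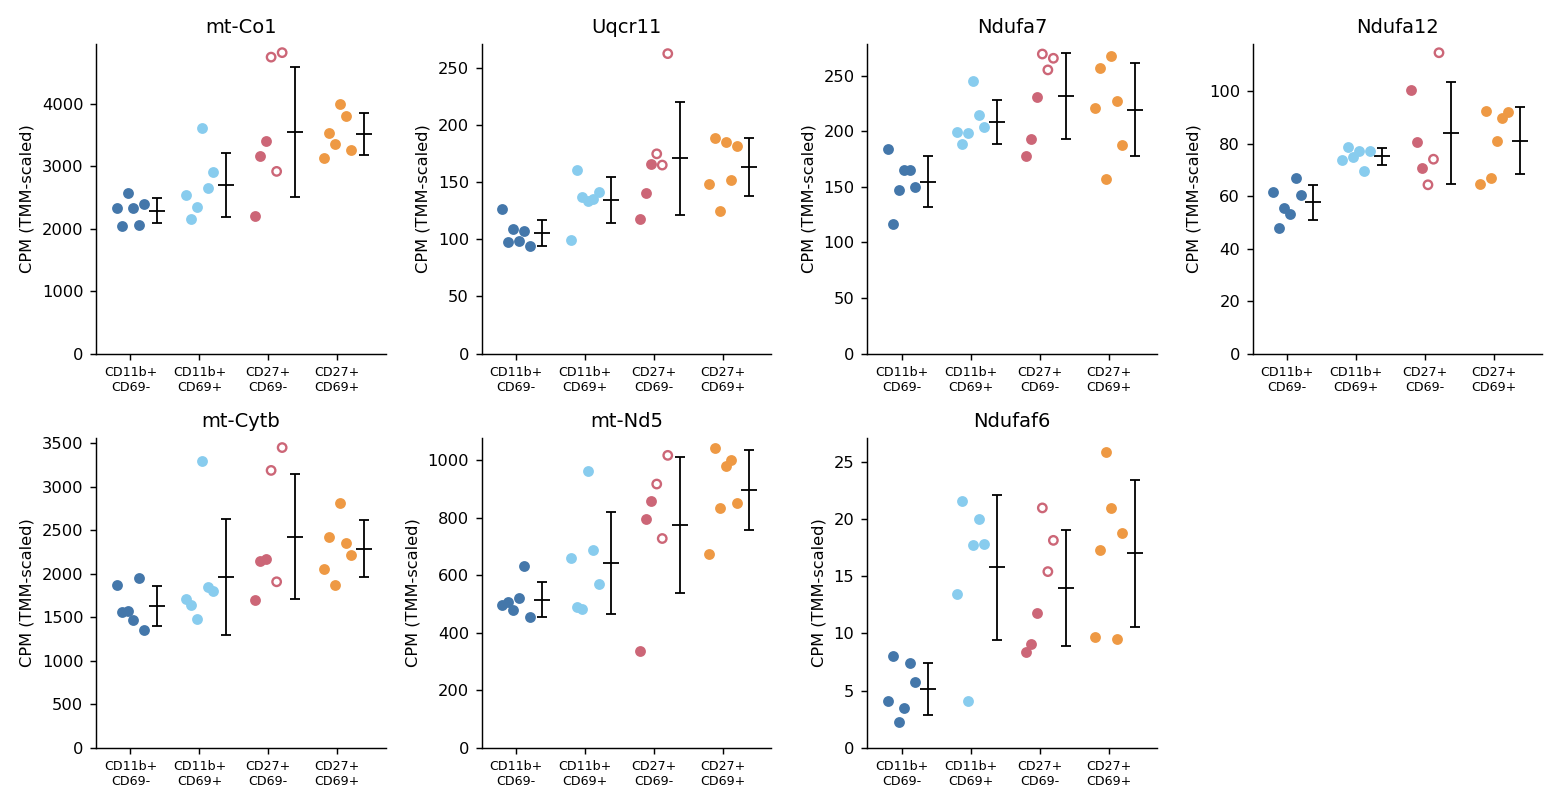
CPM in each of the 24 libraries for the 7 members called between CD27+CD69- and CD11b+CD69- cells, with mean and SD by population; open circles are CD27+CD69- libraries over 1000 CPM of melanoma genes. For Uqcr11, Ndufa7 and Ndufa12 the CD11b+CD69- libraries are the low group, and the CD27+CD69- libraries spread from within the CD11b+CD69- range to far above it for mt-Co1 and mt-Cytb, and from below that range to far above it for mt-Nd5.

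The promoters of 3 of these called nuclear genes are shown because the genes were higher in the same population. Each runs from 100 bases before to 20 bases from the start of transcription in the RefSeq annotation of GRCm38.p6, and Ndufaf6 is named only. Ndufa12 is read from chr10:94198935-94199054 on the plus strand, Ndufa7 from chr17:33824472-33824591 on the plus strand and Uqcr11 from chr10:80406802-80406921 on the minus strand. Capitals mark matches to the words searched for.
Ndufa12: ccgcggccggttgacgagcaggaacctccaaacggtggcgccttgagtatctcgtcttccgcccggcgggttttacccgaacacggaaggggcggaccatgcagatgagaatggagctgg
Ndufa7: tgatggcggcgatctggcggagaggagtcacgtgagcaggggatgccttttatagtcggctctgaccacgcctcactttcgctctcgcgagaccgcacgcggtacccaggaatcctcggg
Uqcr11: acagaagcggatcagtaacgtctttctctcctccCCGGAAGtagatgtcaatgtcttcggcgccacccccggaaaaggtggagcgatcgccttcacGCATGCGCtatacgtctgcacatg

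Uqcr11 holds the word CCGGAAG of ETS factors such as GABP at -66 to -60 from the start, and the word GCATGCGC of nuclear respiratory factor 1 at -4 to 3, where the first transcribed base is 0. Ndufa7 and Ndufa12 hold none of the 4 words searched for in 300 bases (250 before to 50 after the start). A RefSeq promoter was matched to 76 of the 92 nuclear members. Among these 76, GCATGCGC on either strand was in 12 (15.8%), against 2.71% of all 32817 promoters. CCGGAAG was in 18 (23.7%) against 8.86%, the YY1 word AAGATGGCG in 8 (10.5%) against 1.4%, and the CREB word TGACGTCA in 4 (5.26%) against 1.79%. These promoters held 57.5% G and C bases, against 53.8% over all promoters. By group, GCATGCGC was in 3 of 15 ATP synthase promoters, 3 of 32 of complex I and 2 of 7 of the assembly factors. It was in 1 of 3 promoters of complex II, 2 of 5 of complex III and 1 of 14 of complex IV. A match is a run of letters and not a measured binding site.

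Among CD69+ cells, 0 of 93 members were called between CD27+ and CD11b+ by edgeR, against 1.9% of all genes. DESeq2 and limma-voom called 0 as well, and 4 members had an unadjusted p under 0.05 (11.4% of all genes). The estimates were above 0 for 62 of 85 nuclear members (median 0.08) and for 8 of 8 mitochondrial members (median 0.39), against a median of 0.02 for all genes. This comparison shares no library with the one among CD69- cells.

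mt-Co1 had lowest, median and highest levels of 2161, 2592 and 3605 CPM in CD11b+CD69+ and 3133, 3443 and 4002 CPM in CD27+CD69+ libraries. All 6 CD27+CD69+ libraries were above the CD11b+CD69+ median, and the log2 difference of 0.38 ± 0.14 did not pass (edgeR adjusted p = 0.221). mt-Nd5 stood at 483, 615 and 964 against 672, 915 and 1041 CPM (0.48 ± 0.19, edgeR adjusted p = 0.252). mt-Nd1 stood at 716, 997 and 1535 against 1102, 1371 and 1619 CPM (0.42 ± 0.19, edgeR adjusted p = 0.377).

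CD11b+CD69+ replicate 4 had the highest level of its population for all of these genes (3605 CPM of mt-Co1, 964 of mt-Nd5 and 1535 of mt-Nd1). It was the 1 CD11b+CD69+ library above the lowest CD27+CD69+ library for mt-Co1 and mt-Nd1, and for mt-Nd5 replicate 5 (687 CPM) was another. The nuclear members with the smallest p were Ndufa10, a complex I accessory subunit (0.35 ± 0.15, edgeR adjusted p = 0.328), the assembly factor Ndufaf4 (0.49 ± 0.25, 0.467), Ndufb3 (0.28 ± 0.15, 0.487) and Ndufv3 (0.30 ± 0.16, 0.503). Of the nuclear genes called among CD69- cells, Uqcr11 had an estimate of 0.28 ± 0.16 here (edgeR adjusted p = 0.552), Ndufa12 0.11 ± 0.16, Ndufaf6 0.11 ± 0.45 and Ndufa7 0.07 ± 0.14.

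The CD69+ and CD69- populations were then compared within CD11b+ cells. edgeR called 0 of 93 members, against 2.74% of all genes, limma-voom 0 and DESeq2 1, Ndufaf6 (log2 1.62, DESeq2 adjusted p = 0.0122). At an unadjusted p under 0.05 stood 13 nuclear members, 12 of them higher in CD69+, and 0 mitochondrial members, against 13.9% of all genes (7.7% higher). Estimates were above 0 for 68 of 85 nuclear members (median 0.13) and 8 of 8 mitochondrial members (median 0.23), against 49.7% above 0 and a median of 0.00 for all genes. The complex medians were 0.24 for assembly factors, 0.18 for complex II, 0.17 for complex III, 0.14 for ATP synthase, and 0.11 for complexes I and IV each. The typical standard error was 0.15 for a nuclear and 0.20 for a mitochondrial member.

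Ndufaf6 had the largest estimate, 1.61 ± 0.47 (edgeR adjusted p = 0.0636), from 2.22, 4.93 and 8.00 CPM in CD11b+CD69- to 4.10, 17.8 and 21.6 CPM in CD11b+CD69+ libraries. 5 of 6 CD11b+CD69+ libraries exceeded every CD11b+CD69- library, and replicate 3 lay within them; without replicate 3 Ndufaf6 was called (edgeR adjusted p = 0.0294). Uqcrc2, a core protein of complex III, stood at 115, 166 and 219 against 198, 232 and 250 CPM (0.45 ± 0.14, edgeR adjusted p = 0.0900). It was called without CD11b+CD69- replicate 3 (edgeR adjusted p = 0.0418).

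Ndufa7, Ndufb5 and Ndufa12, all accessory subunits of complex I, were the 3 members whose CD11b+ groups did not overlap, each higher in CD11b+CD69+, against 3.19% of all genes (1.6% higher). Ndufa7 stood at 116, 157 and 184 in CD11b+CD69- against 188, 202 and 245 CPM in CD11b+CD69+ libraries (0.43 ± 0.14, edgeR adjusted p = 0.0935). Ndufb5 stood at 86.1, 97.6 and 121 against 123, 134 and 142 CPM (0.40 ± 0.14, edgeR adjusted p = 0.151). Ndufa12 stood at 48.0, 57.9 and 66.9 against 69.5, 75.9 and 78.7 CPM (0.38 ± 0.16, edgeR adjusted p = 0.250). In this comparison melanoma genes reached at most 28.2 CPM and fibroblast genes at most 8.02 CPM in any library. It shares its CD11b+CD69- libraries with the comparison among CD69- cells, in which Ndufa7 and Ndufa12 were called.

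Within CD27+ cells edgeR called 0 of 93 members between CD69+ and CD69-, against 1.85% of all genes, and DESeq2 and limma-voom called 0. At an unadjusted p under 0.05 stood 3 members, all higher in CD69+, against 11.0% of all genes (4.78% higher). The estimates were above 0 for 60 of 85 nuclear members (median 0.12), among them 16 of 16 ATP synthase genes (median 0.13), and for 5 of 8 mitochondrial members (median 0.03). Over all genes the median was -0.01.

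Uqcrb, a complex III subunit that binds ubiquinone, stood at 152, 185 and 266 CPM in CD27+CD69- against 213, 252 and 271 CPM in CD27+CD69+ libraries (0.34 ± 0.12, edgeR adjusted p = 0.174). All 6 CD27+CD69+ libraries were above the CD27+CD69- median, and Uqcrb was called without CD27+CD69- replicate 6 (edgeR adjusted p = 0.0344). Of the windows of its main transcript 43.2% are shared with other annotated transcripts. Atp5d stood at 291, 348 and 371 against 343, 423 and 461 CPM (0.27 ± 0.10, edgeR adjusted p = 0.258), and Ndufb5 at 91.7, 117 and 172 against 126, 155 and 189 CPM (0.36 ± 0.14, edgeR adjusted p = 0.281). The complex IV subunit Cox7c had an estimate of 0.31 ± 0.15 (edgeR adjusted p = 0.460). Other annotated transcripts share 53.0% of the windows of its main transcript. Without the 3 CD27+CD69- libraries over 1000 CPM of melanoma genes, Ndufa1 was called (0.46, edgeR adjusted p = 0.0496).

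**Figure D5:**
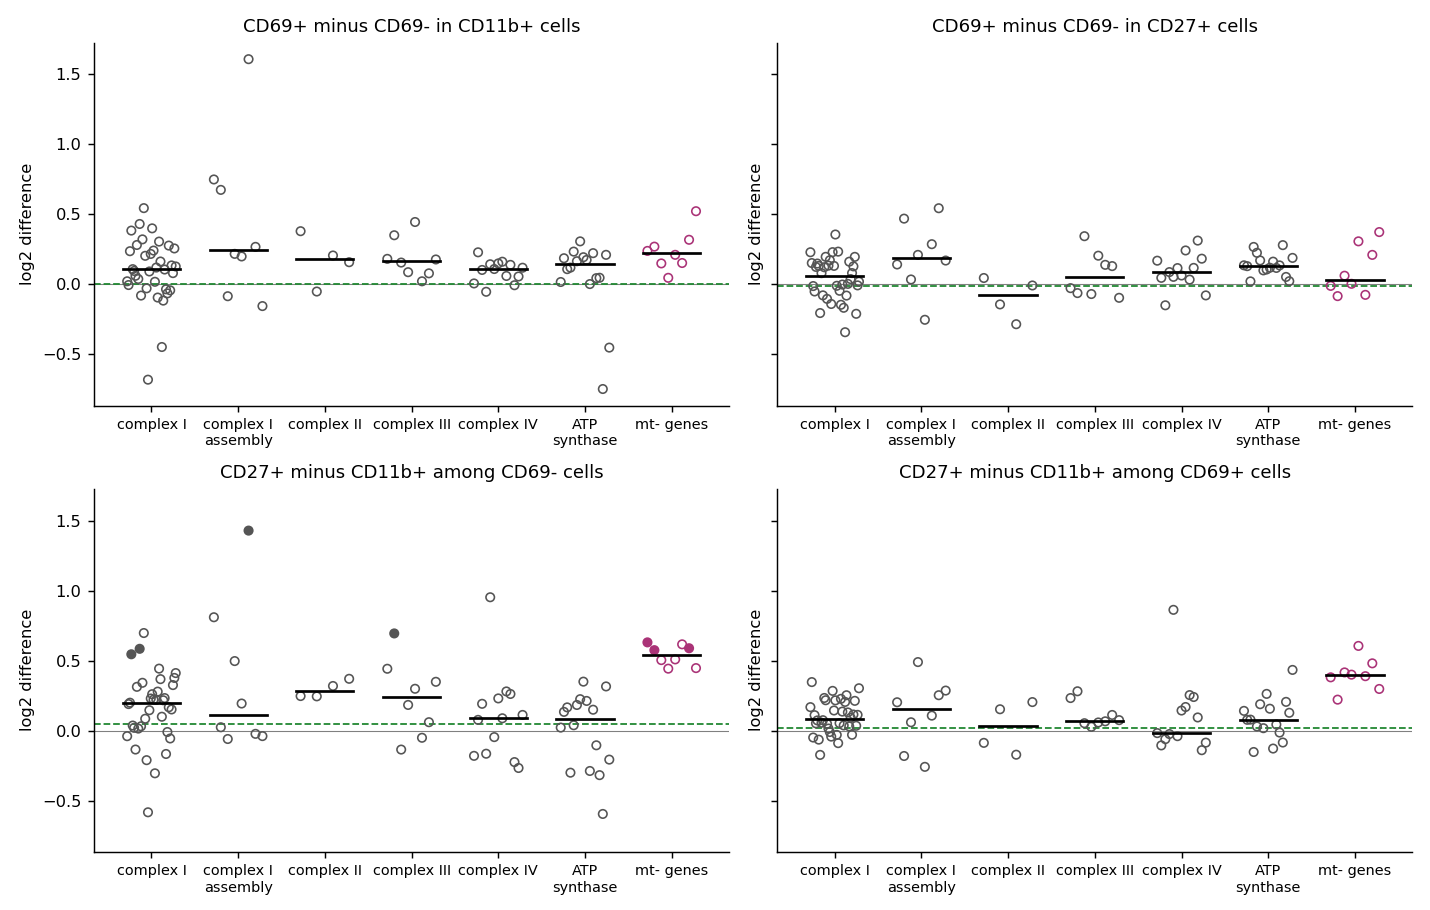
Log2 difference of each tested member in the 4 comparisons, grouped by complex with the mitochondrial genes apart; filled points are called, black bars are group medians and the green dashed line is the median of all genes tested. The mitochondrial genes lie above 0 in both comparisons of CD27+ with CD11b+ cells (medians 0.54 and 0.39), and filled points appear only among CD69- cells.

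An interaction term tested whether the effect of CD69 status was unequal in CD27+ and CD11b+ cells. edgeR called 0 of 93 members against 0.579% of all genes, DESeq2 and limma-voom called 0, and 2 members had an unadjusted p under 0.05 (9.46% of all genes). These were Ndufa7 (-0.51, edgeR adjusted p = 0.333) and the complex II anchor Sdhc (-0.49, edgeR adjusted p = 0.502). In a test of any difference among the 4 populations 7 members were called against 14.1% of all genes: mt-Co1 (edgeR adjusted p = 0.00366), Uqcr11 (0.00883), Ndufa7 (0.0147), mt-Nd5 (0.0155), Ndufb5 (0.0183), Atp5d (0.0332) and Ndufaf6 (0.0489). With each library left out in turn, Ndufaf6 was called in 5 of 24 fits (adjusted p up to 0.112), Atp5d in 18 (up to 0.0955) and Ndufa7 in 23, and the other 4 in 24. Of these members, Ndufb5 and Atp5d were called in no single comparison. The Ndufb5 medians were 97.6, 134, 117 and 155 CPM, higher in each CD69+ population, and its exons overlap those of Mrpl47 on the other strand.

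Genes that work beside these complexes were taken from 10 lists, with 121 of 133 listed genes tested. The clearest differences were in the inner-membrane carrier that exchanges ADP for ATP. Slc25a4, one of its forms, rose from 81.1 ± 20.6 CPM in CD11b+CD69- to 305 ± 112 in CD27+CD69- (SD, n = 6; log2 difference 1.91 ± 0.19, edgeR adjusted p = 9.28e-08). Among CD69+ cells it rose from 94.6 ± 16.2 to 239 ± 23.0 CPM (1.34 ± 0.19, edgeR adjusted p = 6.56e-05). It was higher in 6 of 6 CD27+ libraries each time, and without the 3 libraries over 1000 CPM of melanoma genes (the melanoma-rich libraries) the first difference was 1.60 (edgeR adjusted p = 2.52e-06). The far more abundant form Slc25a5 differed by 0.31 among CD69- cells (edgeR adjusted p = 0.0227), which did not hold without those libraries (adjusted p = 0.238).

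In the list of electron carriers and coenzyme Q genes, 1 of 20 was called higher and 1 lower among CD69- cells, where 12.4% of all genes were called. Gpd2, the mitochondrial glycerol phosphate dehydrogenase that feeds electrons to ubiquinone, fell from 132 ± 38.9 to 63.3 ± 24.0 CPM in CD27+CD69- (-1.06 ± 0.23, edgeR adjusted p = 0.00209), and from 84.0 ± 14.1 to 44.3 ± 10.3 CPM in CD27+CD69+ (-0.92 ± 0.23, edgeR adjusted p = 0.0306). All 6 CD27+ libraries were below the CD11b+ median in both. Without the melanoma-rich libraries the first of these was -0.69 (adjusted p = 0.102). Coq7, a hydroxylase of coenzyme Q synthesis, was higher in CD27+CD69- (1.55 ± 0.45, edgeR adjusted p = 0.0201; 0.286 without those libraries), and Coq5, a methyltransferase of the same path, rose with CD69 in CD11b+ cells (1.01 ± 0.28, edgeR adjusted p = 0.0448).

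Of 17 tricarboxylic acid cycle genes, 3 were higher in CD27+CD69- than in CD11b+CD69- and 0 lower, against 7.46% of all genes higher and 4.92% lower. The succinyl-CoA ligase subunits Suclg1 (0.66 ± 0.14, edgeR adjusted p = 0.00172) and Suclg2 (0.75 ± 0.18, 0.00634) and the isocitrate dehydrogenase subunit Idh3g (0.42 ± 0.14, 0.0468) were called. Suclg1 was also higher in CD27+CD69+ than in CD11b+CD69+ (303 ± 29.3 against 205 ± 31.9 CPM; 0.57 ± 0.14, edgeR adjusted p = 0.0276). Without the melanoma-rich libraries the calls among CD69- cells were lost, with differences of 0.49 for Suclg1, 0.69 for Suclg2 and 0.36 for Idh3g (adjusted p = 0.0773, 0.0643 and 0.258), while that of Suclg1 among CD69+ cells held (0.0235). Among the outer-membrane channels Vdac1 was called among CD69- cells (0.80 ± 0.25, edgeR adjusted p = 0.0324; 0.606 without those libraries).

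Of the complex-specific assembly and regulatory genes, Higd1a, a small complex IV factor (1.07 ± 0.28, edgeR adjusted p = 0.0101), and Atpif1, the inhibitor of ATP synthase (0.80 ± 0.26, 0.0389), were higher in CD27+CD69-. Both calls were lost without the melanoma-rich libraries (adjusted p = 0.715 and 0.552). None of 18 genes for mitochondrial DNA expression was called by edgeR in any of the 4 comparisons. These were CD69 in CD11b+ cells, CD69 in CD27+ cells, CD27+ among CD69- and CD27+ among CD69+ cells. In this order 2.74%, 1.85%, 12.4% and 1.9% of all genes were called. At an unadjusted p under 0.05 stood 1, 0, 2 and 1 of the 18, against 13.9%, 11.0%, 23.7% and 11.4% of all genes. Tfam, the packaging and transcription factor of mitochondrial DNA, had estimates of 0.57 (edgeR adjusted p = 0.182) among CD69- and 0.66 (0.275) among CD69+ cells. Of 8 biogenesis regulators tested, Myc was called once, higher in CD27+CD69+ than in CD27+CD69- (374 ± 109 against 227 ± 41.9 CPM; 0.72 ± 0.18, edgeR adjusted p = 0.0271; 0.169 without the melanoma-rich libraries). Of all genes 1.85% were called in that comparison.

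Each of these calls was repeated with each of the 24 libraries left out in turn. Only 12 of the 24 fits left out a library of the populations compared. The calls of members in a single comparison were counted over those 12 alone. The calls of Slc25a4 in both comparisons, and those of Gpd2, Suclg1 and Suclg2 among CD69- cells, held in 24 of 24. Higd1a and Coq7 held in 23, Slc25a5 in 21, Vdac1 in 20, Myc in 19, Atpif1 in 18 and Idh3g in 12. Among CD69+ cells Suclg1 held in 17 and Gpd2 in 15, and Coq5 in CD11b+ cells held in 10.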

How the data were processed

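RNA was measured in 24 libraries of 100 sorted cells each, with cDNA from the SMART-Seq v4 kit and libraries from Nextera XT, per the labels' protocols; the chemistry keeps no strand and no molecular identifiers, and a floor of 3 counts speaks of counting error alone. The authors' deposited table holds whole counts by Ensembl gene, not normalized, with a column for every library. The submitters' processing notes name HTSeq, Picard and the GRCm38 build, with no tool version. Aligner, annotation release, strand setting and treatment of reads that fit several places: not given in the sources used here. It has 53471 lines for 53465 gene identifiers. The 3433 genes without a symbol held 0.174% of counts and stayed in the tests.

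All tests used edgeR 4.0.16 in R 4.3.3: a quasi-likelihood F-test in 1 fit of 4 group means, with TMM scaling (factors 0.958 to 1.06), filterByExpr at a minimum count of 10, robust dispersions and Benjamini-Hochberg adjustment over 10536 genes at a threshold of 0.05. A member called higher or lower passed this threshold. CPM are TMM-scaled. Differences between populations are on the log2 scale with their SE. Libraries were counted as above or below the median of the other population. Alternatives were DESeq2 1.42.0, limma-voom (limma 3.58.1), other scaling, filters, samples and covariates, a replicate block and leaving out each library. The tests were tested on simulated data with known changes. Symbols came from the table, and positions, transcript lengths and shared windows from GENCODE M21 (GRCm38), which lists all 105 members. Exons of 42 members overlap those of a different gene, and without strand the reads there cannot be assigned with certainty.

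Named are all mitochondrial members, every called member, the 2 with the highest level per length in each complex, the related forms, the 4 nuclear members of smallest p where few were called, and up to 4 of smallest p per related list. Cox8a, Atp5l, Ndufb2 and Ndufb7 as lower estimates, Sdhc in the interaction, Ndufa1 in the alternative fit, and the lowest member of a complex were named after their values were seen. The members and lists were chosen with earlier results of these data known.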

Additional observations from a re-analysis of the deposited data

Results flagged for a closer look

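In each population of 6 libraries, the gap between the highest or lowest value and its nearest neighbour was divided by the whole range and compared with Dixon's 95% critical value. Of 212 groups examined 20 passed, and chance alone gives about 1 in 20. Several are in the mitochondrial genes of CD11b+CD69+ replicate 4: mt-Cytb at 3294.26 CPM (the other 5 libraries 1479 to 1848), mt-Nd4 at 626.677 (280 to 370), mt-Nd6 at 145.504 (53.3 to 63.8) and the sum of the mitochondrial members at 10575.2 CPM (5511 to 6957).

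In CD11b+CD69- replicate 5, mt-Nd5 stood at 633.055 CPM (the others 454 to 519), mt-Nd6 at 78.2096 (43.3 to 49.3) and the nuclear Uqcrb at 252.337 (197 to 215). In CD27+CD69- replicate 1, mt-Nd6 was low at 25.6332 CPM (70.1 to 94.8), as was Ndufa3 at 136.546 (194 to 214). mt-Nd6 is the mitochondrial member encoded on the other strand, and it was far from its group in 3 of the 4 populations.

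CD27+CD69- replicate 6, with 10367 CPM of melanoma genes, was high for Uqcrq at 444.51 CPM (the others 122 to 211), for Atp5g1 at 162.465 (105 to 126) and for the sum of the nuclear complex III genes at 2581.29 (1629 to 1932). The part of the melanoma RNA in these values was not tested. Cox6a2, the heart and muscle form of a complex IV subunit, reached 14.1304 CPM in CD11b+CD69+ replicate 3 (the others at most 0.868) and 21.7397 in CD27+CD69- replicate 3 (the others at most 2.73). Its exons overlap those of Itgad on the other strand, so without strand these reads cannot be assigned with certainty.

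The assembly factor Ndufaf7 stood at 138.41 CPM in CD11b+CD69- replicate 1 (51.6 to 61.1), where the sum of the assembly factors was 373.66 (257 to 267), and at 126.776 in CD11b+CD69+ replicate 4 (65.1 to 85.2). Low values were those of Atp5d in CD27+CD69- replicate 2 at 291.284 CPM (345 to 371), Cox6b1 in CD27+CD69+ replicate 3 at 295.02 (380 to 430) and Ndufa1 in CD11b+CD69- replicate 4 at 193.274 (232 to 248).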

How the results depend on the processing

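No estimate turned its direction past the threshold under any alternative run. Nuclear calls between CD27+CD69- and CD11b+CD69- cells were 4, and became 2 with no filter on low counts, 2 in a fit of only the 2 populations, 0 with fibroblast and melanoma covariates, 0 without the melanoma-rich libraries (CD27+CD69- replicates 4, 5 and 6) and 2 without the fibroblast-rich ones (replicates 2, 3 and 6). These last alternatives were chosen after seeing the data. Mitochondrial calls were 3, and became 5 in DESeq2, 0 with the covariates, 0 without the melanoma-rich and 1 without the fibroblast-rich libraries. Leaving out each library gave 2 to 9 nuclear and 1 to 5 mitochondrial calls there. It gave 0 to 1 nuclear calls for CD69 in CD11b+ cells and 0 to 1 in CD27+ cells, and 3 to 8 nuclear and 2 to 5 mitochondrial calls for any difference (8 without CD27+CD69+ replicate 3; 3 without CD11b+CD69+ replicate 4 or CD27+CD69- replicate 2, 4 or 5; 5 mitochondrial without CD11b+CD69+ replicate 4 or CD27+CD69- replicate 1). Any difference gave 5 nuclear and 2 mitochondrial calls in the report's fit, and 2 and 0 with the covariates. For CD69, nuclear calls became 1 in DESeq2 (CD11b+) and 1 without the melanoma-rich libraries (CD27+). With the covariates the nuclear median among CD69- cells was -0.059 and the mitochondrial one 0.0095, and the mitochondrial CD69 median in CD27+ cells was 0.52. The nuclear median among CD69- cells was 2.98e-05 without the melanoma-rich libraries. The interaction medians were 0.14 (nuclear) and 0.25 (mitochondrial) with the covariates, and the nuclear one 0.10 without either set of libraries. The cause was not tested, except that the last fits hold fewer libraries. The share of all genes called is not given here for each alternative. Changes in the counts of calls therefore cannot be read as particular to the members.

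mt-Co1, Uqcr11 and Ndufa7 were called between CD27+CD69- and CD11b+CD69- cells in all 12 leave-one-out fits (adjusted p at most 0.0129, 0.0142 and 0.0147). Ndufa12 lost its call without CD11b+CD69- replicate 2 (0.0532) or CD27+CD69- replicate 1 (0.0504) or 6 (0.0860), and mt-Cytb without CD11b+CD69- replicate 4 (0.0535) or 6 (0.0614) or CD27+CD69- replicate 4 (0.0858) or 6 (0.101). The call was lost in 8 of 12 for Ndufaf6 (adjusted p from 0.0325 to 0.108; kept without CD11b+CD69- replicate 2 or 5 or CD27+CD69- replicate 1 or 2) and in 9 for mt-Nd5 (0.000796 to 0.108; kept without CD11b+CD69- replicate 5 or CD27+CD69- replicate 1 or 5). Libraries with the same replicate number did not deviate together: over 36 pairs r ran from -0.03 to 0.21 with a median of 0.002, 1 was over 0.1, and 5 of 24 libraries correlated best with their own number. With the replicate number as a replicate block, 6 members were called among CD69- cells, all 6 among the 7, and Ndufaf6 was not (adjusted p = 0.0686). In the test of any difference the block also gave 7 calls, 5 of them shared: Atp5d (0.0571) and Ndufaf6 (0.0795) were lost, and Ndufa9 and Uqcrc2 were called. limma-voom lost Ndufaf6 (0.110) and mt-Nd5 (0.103) among CD69- cells. A typical SE of 0.15 on the log2 scale for nuclear and 0.20 for mitochondrial members limits what these libraries can show.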
